A study of Mus musculus with 6 samples.

Results

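Genes of skeletal muscle were followed in mammary tumors of NeuT/ATTAC mice. The set held 10 genes, taken by symbol from the mouse GRCm38 annotation (Acta1, Ckm, Myh1, Myh2, Myh4, Mylpf, Tnnt3, Tnni2, Myl1 and Atp2a1) and matched by Ensembl gene ID to the 54532 IDs measured in each tumor. All 10 were above 0 in at least 1 tumor, as were 28732 of all IDs. The genes were listed as a gauge of muscle next to the tumor and of its fiber type. The rule uses no measured value, but the genes were chosen with earlier results of these data known.

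The study tested an anti-PD-1 mAb in a fibrosis model of mammary cancer, and tumor RNA was sequenced to follow up on the effect of the antibody. RNAseq was available for 3 tumors of mice given isotype-specific IgG and 3 tumors of mice given an anti-PD-1 mAb. Every mouse carried MMTV-NeuT, an Erbb2 transgene whose MMTV promoter is active in mammary epithelium, and FAT-ATTAC, which lets the dimerizer AP20187 ablate adipose tissue, on an FVB background. In both groups AP20187 (0.4 mg/kg, i.p.) was started at 6 weeks of age to induce fibrosis, biweekly by the labels and triweekly by the study's methods. Antibody (100 μg, i.p., 2 times a week) was started at 8 weeks of age. The labels number the tumors 1 to 3 in each group without saying that each came from its own mouse, and a legend of the study calls the RNA of each group pooled, so the p-values given here measure the spread between these samples only.

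Skeletal muscle fibers contract when myosin of the thick filament pulls on actin of the thin filament, a step that troponin switches on when calcium is released from the sarcoplasmic reticulum. Fibers are classed by the myosin heavy chain they make: slow fibers carry Myh7, and fast fibers carry Myh2 (type IIa), Myh1 (type IIx) or Myh4 (type IIb). The mouse mammary glands lie under the skin, close to the thin muscle of the skin and to muscles of the body wall. These transcripts are made by differentiated fibers and are not part of the usual program of mammary epithelium.

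The 3 fast or intermediate heavy chain genes lie side by side on chromosome 11, and the bases before their starts are shown because the shares of these isoforms are the fiber type gauge used here. The 250 bases upstream of each RefSeq start (build GRCm38.p6, plus strand, 5′ to 3′) are given for Myh2 (chr11:67170777-67171026), Myh1 (chr11:67199852-67200101) and Myh4 (chr11:67237562-67237811), with the longest run common to all 3 in capitals.
Myh2: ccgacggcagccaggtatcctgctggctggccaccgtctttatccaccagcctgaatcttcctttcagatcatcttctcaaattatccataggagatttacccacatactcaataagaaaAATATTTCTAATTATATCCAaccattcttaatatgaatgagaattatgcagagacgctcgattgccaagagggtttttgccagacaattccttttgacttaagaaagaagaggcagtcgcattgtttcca
Myh1: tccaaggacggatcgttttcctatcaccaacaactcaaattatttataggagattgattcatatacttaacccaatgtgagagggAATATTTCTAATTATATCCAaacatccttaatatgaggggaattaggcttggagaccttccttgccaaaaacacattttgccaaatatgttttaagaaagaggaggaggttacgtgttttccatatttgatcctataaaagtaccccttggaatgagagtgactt
Myh4: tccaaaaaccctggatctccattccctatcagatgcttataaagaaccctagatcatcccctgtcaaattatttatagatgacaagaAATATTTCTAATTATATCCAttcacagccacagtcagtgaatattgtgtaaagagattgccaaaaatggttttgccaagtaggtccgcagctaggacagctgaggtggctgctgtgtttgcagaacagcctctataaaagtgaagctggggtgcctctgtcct

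The common run was 20 bases long and began 130 bases before the start of Myh2, 165 before that of Myh1 and 163 before that of Myh4. In pairwise alignments the windows had between 157 and 160 identical bases of 250, with 38 to 62 mismatched and 56 to 106 gapped positions. How many identical bases unrelated windows would give was not tested. Acta1, the actin of adult skeletal muscle, is shown for contrast, since it headed the set in level in several tumors. Its window (chr8:123894776-123895025, minus strand, GRCm38.p6) has a CArG box, the element bound by serum response factor, in capitals.
Acta1: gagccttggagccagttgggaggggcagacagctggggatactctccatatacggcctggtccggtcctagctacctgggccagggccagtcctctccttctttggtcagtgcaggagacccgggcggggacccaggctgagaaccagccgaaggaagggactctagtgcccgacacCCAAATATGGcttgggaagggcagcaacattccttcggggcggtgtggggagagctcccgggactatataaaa

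RefSeq upstream windows were found for 8 of the 10 genes, all but Tnnt3 and Tnni2. Searched on both strands, the letters CAGCTG, an E-box of the kind that myogenic factors bind, were in 6 of the 8 windows (Myl1, Ckm, Atp2a1, Mylpf, Acta1 and Myh4) and in 13% of the 32851 mouse windows of the same length. The wider form CANNTG, which includes CAGCTG, was in the same 6 and in 66.2% of all windows. TATAAA was in 4 of the 8 (Myl1, Acta1, Myh1 and Myh4) and in 12.4% of all. A MEF2 element was in 2 (Myh1 and Myh4) and in 2.92% of all, and a CArG box was in 2 (Acta1 and Myh4) and in 1.47% of all. These are matches of letters only.

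Libraries were of similar depth, with between 21075641 and 23852764 reads recovered per tumor. Values are in FPKM, in which the reads of a gene are divided by exon length and by library size, so levels can be set side by side between genes. Where 3 values are given for a group, they are in the order of replicates 1, 2 and 3. Of 6 luminal epithelial markers, Krt8 (430.5 to 1041 FPKM), Krt18 (684.6 to 1385 FPKM), Epcam (689.9 to 1150 FPKM) and Cldn7 (56.8 to 119.0 FPKM) were abundant in every tumor, Elf3 lay between 7.04 and 26.3 FPKM, and Krt19 was between 1.70 and 7.84 FPKM except for 77.9 FPKM in IgG replicate 2. Correlations of log2(FPKM + 1) between tumors lay between 0.892 and 0.958.

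The muscle genes were present in some tumors and nearly absent from others, and the tumors that held them were in both groups. Summed over the 10 genes, the level was 2.30, 180.1 and 7.99 FPKM in the IgG tumors and 95.2, 193.9 and 2.26 FPKM in the anti-PD-1 tumors. IgG replicate 2 and anti-PD-1 replicates 1 and 2 were thus high, and IgG replicate 1 and anti-PD-1 replicate 3 were low, with IgG replicate 3 a little above these. For all 10 genes the 3 highest tumors were these same 3, with anti-PD-1 replicate 2 on top for 7 genes and IgG replicate 2 for Acta1, Myh1 and Myl1. Fewer muscle cells and less RNA per cell cannot be told apart in such bulk samples.

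**Figure D1:**
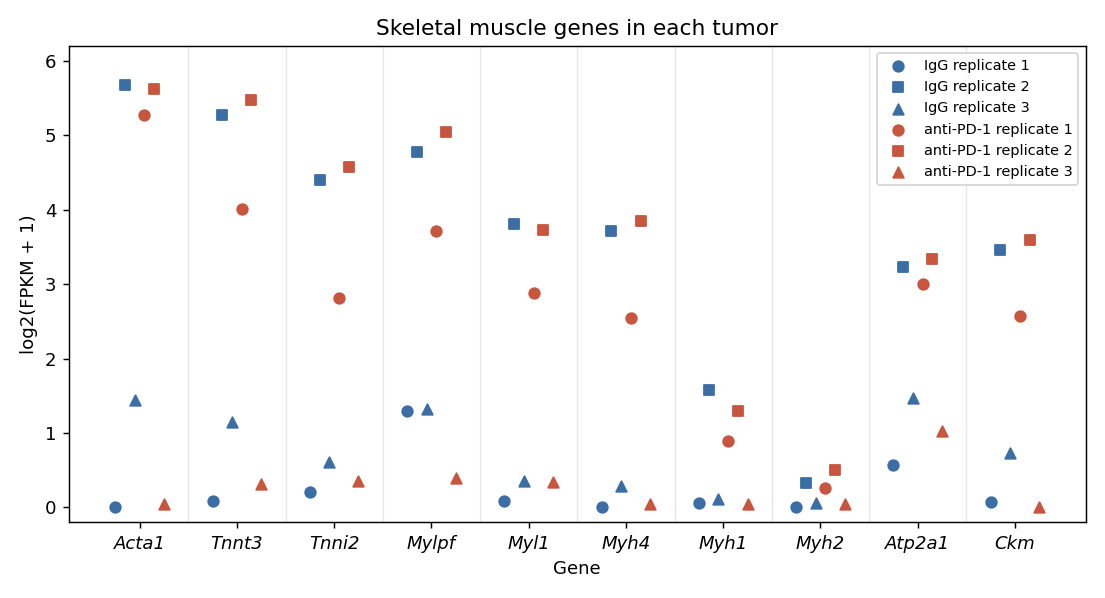
Level of each of the 10 skeletal muscle genes, as log2(FPKM + 1) on the vertical axis, in each tumor, with 1 point per tumor, color for the group and marker shape for the replicate number. For every gene the points of IgG replicate 2 and anti-PD-1 replicates 1 and 2 lie above the other three points, so that each group holds both high and low tumors.

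In reads, the 10 genes together took 90, 8822 and 431 reads in IgG replicates 1 to 3. Per 1000000 reads this was 4.27 (95% exact Clopper-Pearson interval 3.43 to 5.25), 371.8 (364.1 to 379.6) and 19.5 (17.7 to 21.5). In anti-PD-1 replicates 1 to 3 they took 4906, 9518 and 141 reads, or 205.7 (199.96 to 211.5), 415.3 (407.0 to 423.7) and 6.14 (5.17 to 7.24) per 1000000. The intervals of the 6 tumors did not overlap each other except for IgG replicate 1 and anti-PD-1 replicate 3, and they cover counting error only. Even in the highest tumor the set was thus a very small part of the library.

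Among thin filament genes, Acta1 (ENSMUSG00000031972, chromosome 8 from 123891769 to 123894751, minus strand) had 0, 50.1 and 1.71 FPKM in the IgG tumors and 37.7, 48.4 and 0.0274 FPKM in the anti-PD-1 tumors. The value of 0 rested on 0 reads, which allows up to 0.0887 FPKM (3 reads), and the value of anti-PD-1 replicate 3 rested on 1 read. Acta1 was the highest of the 10 genes in IgG replicate 2 and in anti-PD-1 replicates 1 and 2. The mean was 17.3 ± 28.4 FPKM (SD, n = 3) in IgG and 28.7 ± 25.4 FPKM (SD, n = 3) in anti-PD-1 tumors, so the spread within each group was close to or above its mean.

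Tnnt3 (ENSMUSG00000061723, chromosome 7 from 142498836 to 142516009), the fast troponin T that ties the troponin complex to tropomyosin, had 0.0574, 37.8 and 1.22 FPKM in the IgG tumors and 15.1, 43.2 and 0.239 FPKM in the anti-PD-1 tumors. Tnni2 (ENSMUSG00000031097, chromosome 7 from 142441808 to 142444410), the fast troponin I that blocks contraction at rest, had 0.152, 20.1 and 0.520 FPKM in the IgG tumors and 6.03, 22.8 and 0.281 FPKM in the anti-PD-1 tumors. Both troponin genes split the tumors as Acta1 did. In anti-PD-1 replicate 1 they were further below anti-PD-1 replicate 2 than Acta1 was, at 35.0% of its level for Tnnt3 and 26.5% for Tnni2 against 78.0% for Acta1.

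Among thick filament genes, Mylpf (ENSMUSG00000030672, chromosome 7 from 127208890 to 127214298), the regulatory light chain of fast fibers, had 1.45, 26.4 and 1.5045 FPKM in the IgG tumors and 12.1, 31.9 and 0.317 FPKM in the anti-PD-1 tumors. Myl1 (ENSMUSG00000061816, chromosome 1 from 66924295 to 66945404), the alkali light chain of fast fibers, had 0.0657, 13.0 and 0.277 FPKM in the IgG tumors and 6.37, 12.2 and 0.264 FPKM in the anti-PD-1 tumors. In IgG replicate 1, 34 of the 90 reads of the whole set fell on Mylpf and 37 on Atp2a1, whereas Acta1, Myh2 and Myh4 had none. In the 3 high tumors Acta1 and Myh4 took the most reads of the set.

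Myh4 (ENSMUSG00000057003, chromosome 11 from 67238029 to 67260446) had 0, 12.1 and 0.218 FPKM in the IgG tumors and 4.81, 13.3 and 0.0280 FPKM in the anti-PD-1 tumors, where 0 reads allow up to 0.0227 FPKM. Myh1 (ENSMUSG00000056328, chromosome 11 from 67200052 to 67224575) had 0.0429, 1.99 and 0.0774 FPKM in the IgG tumors and 0.861, 1.45 and 0.0331 FPKM in the anti-PD-1 tumors. Myh2 (ENSMUSG00000033196, chromosome 11 from 67171027 to 67197517) had 0, 0.257 and 0.0402 FPKM in the IgG tumors and 0.197, 0.410 and 0.0295 FPKM in the anti-PD-1 tumors, and 0 reads allow up to 0.0191 FPKM. Myh2 was the lowest of the 10 in every tumor except IgG replicate 1, where it shared 0 with Acta1 and Myh4, and anti-PD-1 replicate 3, where Acta1, Myh4 and Ckm were below it. The 3 genes are close relatives: of the distinct 50-base windows of Myh4 transcripts, 10.6% were also in Myh1 and 10.1% in Myh2, and of those of Myh1, 18.7% were in Myh2. Reads from such stretches could be counted on either gene.

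Atp2a1 (ENSMUSG00000030730, chromosome 7 from 126445858 to 126463108), the calcium pump that refills the sarcoplasmic reticulum of fast fibers, had 0.483, 8.36 and 1.77 FPKM in the IgG tumors and 7.01, 9.11 and 1.04 FPKM in the anti-PD-1 tumors. It did not fall as low as the others: with 37, 150 and 86 reads in IgG replicates 1 and 3 and anti-PD-1 replicate 3, it held 5.31%, 19.4% and 11.4% of its level in anti-PD-1 replicate 2, the largest share among the 10 genes in each of these tumors. Rabep2, on the opposite strand, covers 21.9% of the exon bases of Atp2a1, and whether strand was used in counting is not given in the sources used here. Its part in these low values was not tested. Ckm (ENSMUSG00000030399, chromosome 7 from 19404776 to 19422841), the muscle creatine kinase that buffers ATP, had 0.0468, 9.96 and 0.661 FPKM in the IgG tumors and 4.95, 11.1 and 0 FPKM in the anti-PD-1 tumors, where 0 reads allow up to 0.0434 FPKM. An antisense transcript, A930016O22Rik, covers 15.5% of the exon bases of Ckm.

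The order of the 10 genes by FPKM was close to identical in IgG replicate 2 and anti-PD-1 replicate 2, with a Spearman correlation of 0.988 across the 10 genes, which are not independent and share each library. With anti-PD-1 replicate 1 it was 0.855 and 0.818, and for IgG replicate 1 or anti-PD-1 replicate 3 against these 3 tumors it lay between 0.00606 and 0.399. IgG replicate 3 was at 0.867 with anti-PD-1 replicate 1 and at 0.576 and 0.564 with IgG replicate 2 and anti-PD-1 replicate 2, and IgG replicate 1 and anti-PD-1 replicate 3 were at 0.853 with each other. The orders in IgG replicate 1 and anti-PD-1 replicate 3 rest on only 90 and 141 reads, with 3 and 1 of the 10 genes at 0. Relative to anti-PD-1 replicate 2, the genes in IgG replicate 2 stood between 62.6% (Myh2) and 137.1% (Myh1), with a median of 90.3%. In anti-PD-1 replicate 1 they stood between 26.5% (Tnni2) and 78.0% (Acta1), with a median of 46.3%, and in IgG replicate 3 between 1.63% (Myh4) and 19.4% (Atp2a1), with a median of 4.12%. IgG replicate 2 thus had nearly the level and profile of anti-PD-1 replicate 2 across the treatment groups.

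**Figure D2:**
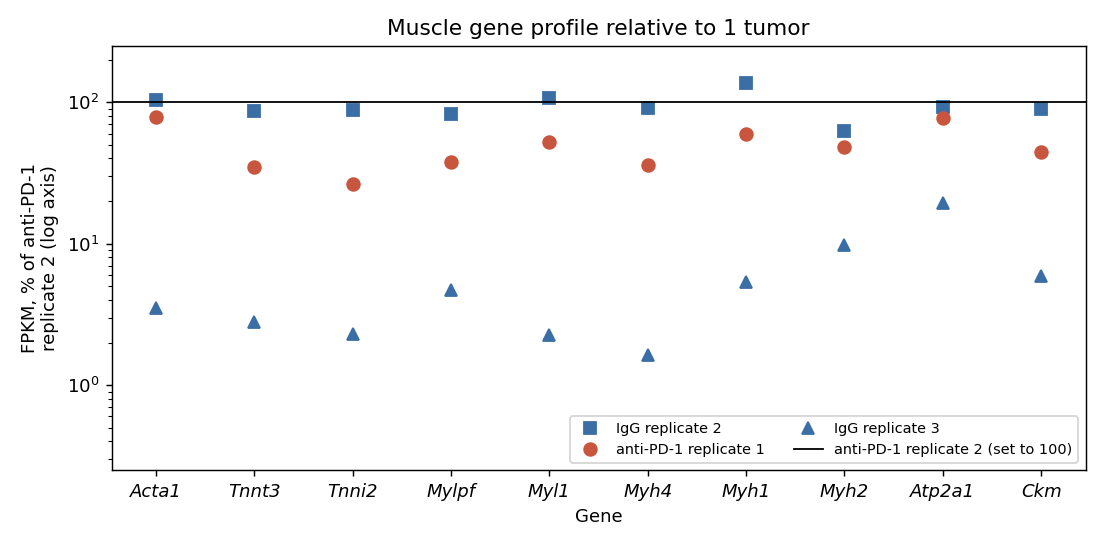
FPKM of each of the 10 genes as a percentage of its value in anti-PD-1 replicate 2 (horizontal line at 100, log axis), for IgG replicate 2, anti-PD-1 replicate 1 and IgG replicate 3. IgG replicate 2 follows the line with a median of 90.3%, anti-PD-1 replicate 1 runs below it with a median of 46.3%, and IgG replicate 3 lies lowest with a median of 4.12% and its highest point at Atp2a1.

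In the 3 high tumors the heavy chain transcripts were nearly all of the fast types, mostly Myh4. Of the summed FPKM of the 4 adult heavy chains (Myh1, Myh2, Myh4 and Myh7), Myh4 made up 84.4% in IgG replicate 2, 82.0% in anti-PD-1 replicate 1 and 87.6% in anti-PD-1 replicate 2. Myh1 made up 13.8%, 14.7% and 9.54% in the same tumors, and Myh2 made up 1.78%, 3.36% and 2.69%. These shares rest on 2102, 917 and 2249 reads. By reads the Myh4 share was 83.4% (95% Clopper-Pearson interval 81.8 to 85.0), 80.8% (78.1 to 83.3) and 86.6% (85.1 to 88.0), so that anti-PD-1 replicate 2 lay above the other two beyond counting error.

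In IgG replicate 3, with 52 heavy chain reads, the Myh4 share of FPKM was 64.0%, and by reads it was 61.5% (47.0 to 74.7). IgG replicate 1 had 6 reads on these genes, all of Myh1, and anti-PD-1 replicate 3 had 14, of which 4 were of Myh4, so their shares could not be read at this depth. Over the 4 tumors with at least 50 reads the Myh4 share was 84.8% in anti-PD-1 and 74.2% in IgG, a difference of 10.6 percentage points (two-sided exact permutation test, p = 0.667, n = 2 and 2, where the smallest possible p is 0.333). The difference rested on IgG replicate 3: without it, it was 0.395 points, and without IgG replicate 2 it was 20.7 points.

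**Figure D3:**
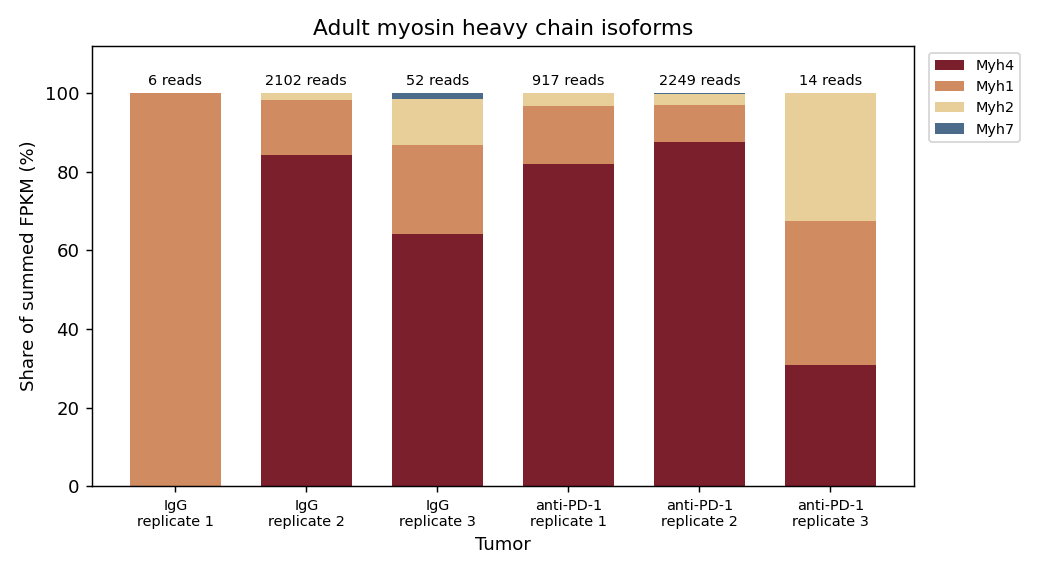
Share of each adult myosin heavy chain gene in their summed FPKM (vertical axis, percent) per tumor, with the reads on the 4 genes printed above each bar. Myh4 makes up between 82.0% and 87.6% in the 3 tumors with at least 917 reads, and the bars of IgG replicate 1 and anti-PD-1 replicate 3 rest on 6 and 14 reads.

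Of the slow fiber genes, the slow heavy chain, both slow light chains and the slow troponin T were close to 0, and the slow troponins I and C were low but present. Myh7 had 7 reads in anti-PD-1 replicate 2, 1 in IgG replicate 3 and 0 in the other tumors. By reads the Myh7 share in IgG replicate 2 was 0%, with an upper bound of 0.175%. In anti-PD-1 replicate 2, the slow genes Tnnt1, Myl3 and Myl2 stood at 0.131, 0.202 and 0.127 FPKM, where their fast counterparts Tnnt3, Myl1 and Mylpf stood at 43.2, 12.2 and 31.9 FPKM. In IgG replicate 2, Myl2, Myl3 and Myh7 had 0 reads and Tnnt1 had 1. Tnni1, the slow troponin I, was between 0.0683 and 0.640 FPKM and did not follow the other genes, with 0.468 FPKM in anti-PD-1 replicate 3. It exceeded the fast Tnni2 in IgG replicate 1 (18 against 5 reads) and in anti-PD-1 replicate 3 (40 against 10 reads), and lay below it in the other 4 tumors. Tnnc1, the troponin C of slow and cardiac muscle, passed the filter with 1.09, 0.240 and 0.512 FPKM in the IgG tumors and 0.488, 0.713 and 0.364 FPKM in the anti-PD-1 tumors. Its highest value was in IgG replicate 1, a tumor low in the 10 genes. The slow list also holds Atp2a2 (35.2 to 58.8 FPKM) and Tpm3 (38.0 to 52.4 FPKM), which many cell types use, and these made up most of its sum of 82.6 to 99.3 FPKM. Of the 11 genes 2 shared the 3 highest tumors, and the 3 that were tested had a median log2 fold change of -0.06, none with an unadjusted p under 0.05. That median was 0.15 without IgG replicate 1 and -0.23 without IgG replicate 2.

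Transcripts of growing or regenerating muscle were at the limit of detection. The embryonic heavy chain Myh3 and the perinatal Myh8 had 1 read each in IgG replicate 1 and 0 in the other tumors. Of 14 satellite cell and myogenic genes, Myf5, Mymk and Chrng were at 0 in all 6 tumors, and the list summed to between 0 and 0.812 FPKM. Pax7, a marker of satellite cells, had 7 reads in IgG replicate 2 and 0 elsewhere, Myod1 had 6 in anti-PD-1 replicate 2 and 0 elsewhere, and Myog had 5 in IgG replicate 2, 3 in anti-PD-1 replicate 1 and 0 elsewhere. Myf6, the myogenic factor kept on in mature fibers, had 3, 14 and 16 reads in IgG replicate 2 and anti-PD-1 replicates 1 and 2 and 0 in the other 3 tumors.

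No muscle gene passed the test between the treatment groups. A gene was tested if its mean over the 6 tumors was at least 0.5 FPKM, which 9 of the 10 passed, all but Myh2, and log2(FPKM + 1) was compared with limma (two-sided, Benjamini-Hochberg adjustment over 15069 genes). This scale understates the change of low genes. None of the 9 had an adjusted p under 0.05, as none of all tested genes had (0%), and none had an unadjusted p under 0.05, against 12.3% of all tested genes (6.22% higher and 6.05% lower in anti-PD-1). With voom, limma's model for counts, on the recovered reads, again 0 of the 10 had an unadjusted p under 0.05. In 0 of the 9 did the groups fail to overlap, against 18.1% of all tested genes (9.3% with anti-PD-1 above).

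The 9 genes all had a higher mean in anti-PD-1 tumors, against 50.8% of all genes tested, with log2 fold changes from 0.16 (Myh1) to 1.28 (Acta1), a median of 0.81 and a median over all tested genes of 0.01. The genes moved together from tumor to tumor, so this shared direction is close to 1 observation and not 9. Anti-PD-1 replicate 2 decided it: without that tumor 3 of the 9 were higher and the median was -0.04. Leaving out another tumor gave a median of 0.08 (IgG replicate 1), 1.99 (IgG replicate 2), 0.30 (IgG replicate 3), 0.46 (anti-PD-1 replicate 1) or 1.89 (anti-PD-1 replicate 3).

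Acta1 had a log2 fold change of 1.28 (standard error 1.85, 95% interval -3.07 to 5.63, limma adjusted p = 0.807). For Tnnt3 it was 1.10 (standard error 1.65, limma adjusted p = 0.815), for Myh4 0.81 (standard error 1.22, limma adjusted p = 0.816) and for Atp2a1 0.70 (standard error 0.80, limma adjusted p = 0.748), the last with the smallest p of the set. Over the 9 genes the adjusted p lay between 0.748 and 0.913. Two-sided exact permutation tests on log2(FPKM + 1) gave p-values from 0.6 to 1 for the 10 genes, where 3 tumors against 3 cannot go under 0.1. The intervals were wide for most genes, as that of Acta1 shows. The narrowest was that of Myh1, from -1.005 to 1.33 on this scale, and that of Atp2a1 ran from -1.18 to 2.59. The smallest standard error of the 9, 0.50 for Myh1, was above that of 94.0% of all tested genes, whose median was 0.22.

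**Figure D4:**
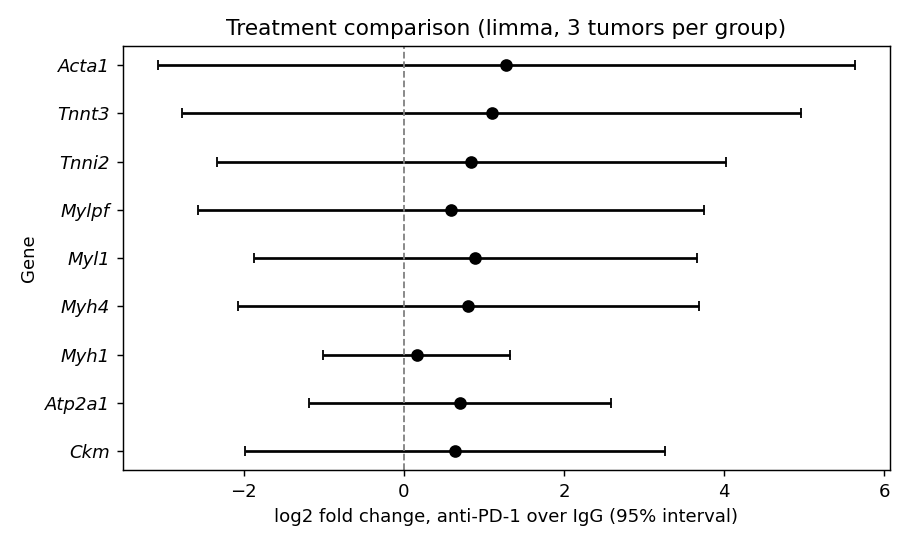
Log2 fold change of anti-PD-1 over IgG on the log2(FPKM + 1) scale for the 9 muscle genes tested, with 95% intervals from limma and 3 tumors per group. All 9 points lie above 0, and every interval crosses 0, the widest running from -3.07 to 5.63 for Acta1.

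Other muscle genes followed the 10 in part. Counts of genes with the same 3 highest tumors were made after the values were seen, and 2.81% of all tested genes and 2.22% of all IDs above 0 have these 3 tumors highest. In a list of 18 further sarcomere genes, 13 had their highest values in IgG replicate 2 and anti-PD-1 replicates 1 and 2. Tcap, which anchors titin at the Z-disc, had 0.144, 6.59 and 0.303 FPKM in the IgG tumors and 3.42, 4.70 and 0.266 FPKM in the anti-PD-1 tumors. Actn3, the α-actinin of fast fibers, had 0.0471, 4.79 and 0.0991 FPKM in the IgG tumors and 2.21, 6.65 and 0.0145 FPKM in the anti-PD-1 tumors. Mybpc2 shared the 3 highest tumors but was at 1.07 FPKM in anti-PD-1 replicate 3. Tmod4 lay between 1.11 and 3.30 FPKM, with its lowest value in anti-PD-1 replicate 1.

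Tnnc2, the fast troponin C and partner of Tnnt3 and Tnni2, was an exception, with 1 read in IgG replicate 1 and 0 in the other tumors. On the opposite strand Ube2c covers 74% of its exon bases. Whether reads of Tnnc2 were left out at the counting step was not tested.

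Of the 18 sarcomere genes 8 passed the filter. Their median log2 fold change was 0.40, and with 1 tumor left out it ran from -0.04 (anti-PD-1 replicate 2) to 0.86 (IgG replicate 2). Of the 8 genes 1 had an unadjusted p under 0.05. That gene was Ldb3, a Z-disc protein, at 1.06, 3.76 and 3.41 FPKM in the IgG tumors and 0.877, 1.20 and 0.903 FPKM in the anti-PD-1 tumors. It had a log2 fold change of -0.82 (standard error 0.33, limma adjusted p = 0.397) and did not follow the muscle genes. Without IgG replicate 2 or IgG replicate 3 the Ldb3 value was -0.60 or -0.65 and its unadjusted limma p was 0.140 or 0.137, and leaving out any anti-PD-1 tumor also took that p above 0.05. Without IgG replicate 1 it was -1.20 with an unadjusted limma p of 0.00092.

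In a list of 15 genes of excitation-contraction coupling and calcium handling, 8 shared the same 3 highest tumors. Pvalb, the calcium buffer of fast fibers, was the clearest, with 0, 32.7 and 0.354 FPKM in the IgG tumors and 13.1, 36.2 and 0 FPKM in the anti-PD-1 tumors. Casq1, the calcium store protein of the sarcoplasmic reticulum, had 0.978, 3.44 and 0.252 FPKM in the IgG tumors and 1.90, 3.001 and 0.647 FPKM in the anti-PD-1 tumors. Srl lay between 0.775 and 2.24 FPKM. Of the 7 genes tested 1 had an unadjusted p under 0.05, the calcium channel subunit Cacnb1, with 2.71 ± 0.31 FPKM (SD, n = 3) in IgG and 1.49 ± 0.21 FPKM (SD, n = 3) in anti-PD-1 tumors. Cacnb1 had a log2 fold change of -0.57 (standard error 0.17, limma adjusted p = 0.347). Its unadjusted limma p was 0.0127, and lay between 0.0155 and 0.0465 when any tumor was left out. The median log2 fold change of the 7 was 0.18, and with 1 tumor left out it ran from -0.02 (anti-PD-1 replicate 2) to 0.48 (IgG replicate 2). The list median was 0.60 with 0.1 as the pseudocount, 0.59 with voom and -0.01 with no filter. The groups of Cacnb1 did not overlap, nor did those of Stac3, which couples the calcium channel to release and stood at 0.490 ± 0.202 FPKM (SD, n = 3) in IgG and 0.991 ± 0.118 FPKM (SD, n = 3) in anti-PD-1 tumors, with the opposite sign (log2 fold change 0.43, limma adjusted p = 0.440). Neither had the 3 highest tumors of the muscle genes.

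In a list of 12 genes of muscle energy metabolism, 7 shared the 3 highest tumors. Eno3, the muscle enolase, had 3.24, 14.8 and 2.83 FPKM in the IgG tumors and 8.45, 16.3 and 2.54 FPKM in the anti-PD-1 tumors. Myoglobin (Mb) did not follow, with 8.71, 8.69 and 2.499 FPKM in the IgG tumors and 5.05, 5.64 and 8.61 FPKM in the anti-PD-1 tumors, so that 2 of the tumors nearly without muscle transcripts were among its 3 highest. Cox7a1 (5.84 to 14.9 FPKM) and Pfkm (15.2 to 47.8 FPKM) did not follow either. The sum of the list was 73.5 FPKM in anti-PD-1 replicate 3, above 72.6 FPKM in IgG replicate 2 and 54.9 FPKM in anti-PD-1 replicate 1. None of the 10 genes tested had an unadjusted p under 0.05, and the median log2 fold change was 0.25. That median was -0.14 without anti-PD-1 replicate 2, -0.02 without IgG replicate 3 and 0.45 without IgG replicate 2.

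The genes whose pattern over the 6 tumors was most like the mean of the 10 muscle genes were Pvalb, Myoz1, Cox6a2, Actn3, Pygm, Selenoi, Tcap, Eno3, Vti1a and Des, ranked by Pearson correlation of log2(FPKM + 1) among 12400 protein-coding genes. Their correlations ran from 0.999 for Pvalb to 0.984 for Des, over 6 tumors that fall apart into high and low ones. Of these 10, 7 were on the muscle lists. Des, the intermediate filament protein desmin, had 0.956, 5.08 and 0.873 FPKM in the IgG tumors and 4.44, 5.31 and 0.841 FPKM in the anti-PD-1 tumors. Selenoi (2.82 to 3.49 FPKM) and Vti1a (2.12 to 3.13 FPKM) had their highest values in the same 3 tumors, spanned a narrow range and ordered the other three tumors differently from the summed muscle genes.

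Genes of cardiac and smooth muscle did not place the tumors in this order. Of 9 cardiac genes none had the same 3 highest tumors, Actc1 had 1 read in IgG replicate 3 and 0 elsewhere, and Nppa and Myl7 had at most 3 reads each in any tumor. Tnni3 (1.25 to 5.94 FPKM) and Tnnt2 (0.592 to 2.47 FPKM) made up most of that list, which summed to 2.20 to 5.37 FPKM in IgG and 5.60 to 7.54 FPKM in anti-PD-1 tumors. Smooth muscle and myoepithelial genes summed to 60.7 to 76.9 FPKM in the IgG tumors and 57.1 to 116.1 FPKM in anti-PD-1 tumors, and the highest sum belonged to anti-PD-1 replicate 3, a tumor low in the skeletal muscle genes. Of these 10 genes, the myosin light chain kinase gene Mylk was the 1 with an unadjusted p under 0.05, with a log2 fold change of 0.90 (limma adjusted p = 0.387) that was 0.56 without anti-PD-1 replicate 2. Its unadjusted limma p stayed under 0.05 only without anti-PD-1 replicate 1, and lay between 0.0547 and 0.106 when any other tumor was left out. Non-muscle relatives, led by Actb at 608.2 to 1226 FPKM, summed to 1452 to 2120 FPKM in IgG and 2217 to 2504 FPKM in anti-PD-1 tumors. In 3 of the 8 (Actb, Actg1 and Myl12a) the anti-PD-1 values lay above those of IgG without overlap, and the median log2 fold change of the 8 was -0.04. That median ran from -0.05 to 0.15 with 1 tumor left out.

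Markers of other tissues did not place the tumors in this order either, apart from single genes such as Prx in the Schwann cell list (2.003 FPKM in anti-PD-1 replicate 2 and 1.22 FPKM in IgG replicate 3). Their part in the muscle values was not tested. Of 10 adipocyte genes none shared their 3 highest tumors, and these genes summed to 10.0 to 19.0 FPKM in the IgG tumors and 6.54 to 15.3 FPKM in anti-PD-1 tumors, with anti-PD-1 replicate 2 at 7.93 FPKM. Brown adipocyte genes summed to 1.94 to 4.79 FPKM in the IgG tumors and 2.83 to 16.0 FPKM in anti-PD-1 tumors, nearly all of it Cidea, while Ucp1 had 1 read in IgG replicate 1 and 0 elsewhere and Elovl3 and Zic1 were at 0 in all tumors. Epidermal genes summed to 0.932 to 2.04 FPKM, with Krt2 and Dsc1 at 0 in all tumors. Endothelial genes summed to 16.3 to 22.8 FPKM in the IgG tumors and 10.7 to 19.8 FPKM in anti-PD-1 tumors. Schwann cell genes summed to 203.3 to 313.1 FPKM in the IgG tumors and 206.9 to 278.4 FPKM in anti-PD-1 tumors, of which Sox10 made up the most (193.1 to 302.1 FPKM). Tendon genes summed to 34.3 to 145.4 FPKM in the IgG tumors and 203.7 to 547.7 FPKM in anti-PD-1 tumors, and IgG replicate 2 was the lowest of all 6. That sum was mostly Comp, a matrix protein of cartilage and tendon, with a log2 fold change of 2.47 (limma adjusted p = 0.344) that was 1.63 without IgG replicate 2. The groups of Comp did not overlap. Its unadjusted limma p was 0.0100, and lay between 0.00559 and 0.0378 when any tumor was left out. The tendon transcription factor genes Scx and Mkx had log2 fold changes of the other sign (-0.59 and -0.93), and the tendon marker Tnmd had at most 11 reads. The median log2 fold change of the 4 tested was -0.13, and ran from -0.34 to 0.16 with 1 tumor left out. The list median was 0.34 with a mean of at least 2 FPKM, 0.23 with no filter and 0.38 with voom. None of the genes tested in the cardiac, non-muscle, adipocyte, brown adipocyte, epidermal, Schwann cell and endothelial lists had an unadjusted p under 0.05. In the luminal epithelial list 5 of 6 genes had a higher mean in anti-PD-1 tumors and the median log2 fold change was 0.42. Krt19 was the exception at -2.03 (limma adjusted p = 0.404), with 77.9 FPKM in IgG replicate 2 against 7.84 and 7.46 FPKM in the other IgG tumors, and it was -0.97 without IgG replicate 2. Its unadjusted limma p was 0.0797, 0.0690 and 0.138 when anti-PD-1 replicate 1, 2 or 3 was left out, and 0.0295, 0.0409 and 0.0308 when IgG replicate 1, 2 or 3 was.

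**Figure D5:**
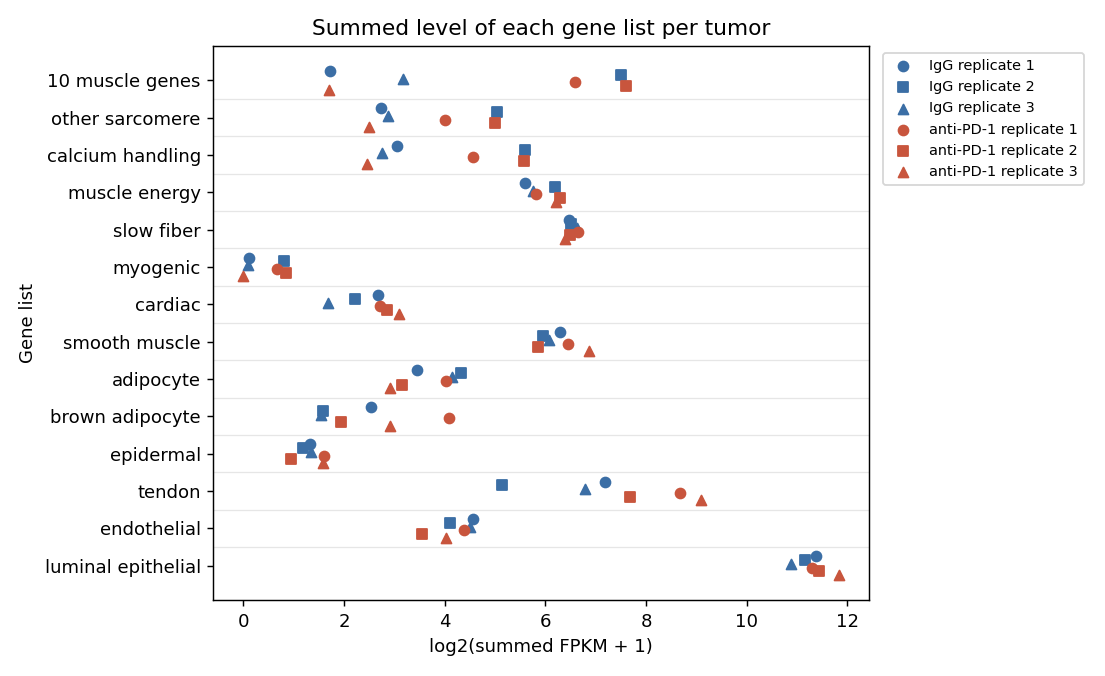
Summed FPKM of gene lists, as log2(sum + 1) on the horizontal axis, with 1 point per tumor, color for the group and marker shape for the replicate number. The 10 muscle genes, the other sarcomere genes, the calcium handling genes and the myogenic genes place IgG replicate 2 and anti-PD-1 replicates 1 and 2 above the other three tumors, and the muscle energy, slow fiber, cardiac, smooth muscle, adipocyte, brown adipocyte, epidermal, tendon, endothelial and epithelial lists do not.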

How the data were processed

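The authors deposited FPKM values per gene for each of 6 tumors. By the submitters' processing notes and the study's methods they used FastQC 0.11.9, Cutadapt 3.5, Bowtie2 2.4.1 and RSEM 1.3.1 on mm10, and how the FPKM was made is not stated. Genes were annotated from GENCODE M21 (GRCm38), which matched 54495 of 54532 IDs. FPKM times merged exon length fell within 0.1 of whole multiples of 1 read for 97.0% to 97.3% of detected values, which gave the reads. FPKM was divided by median-of-ratios factors (1.00 to 1.01), 1 was added, and log2 values of genes with a mean of at least 0.5 FPKM were compared by limma 3.58.1 (R 4.3.3, trend, no covariate). The script was tested on simulated reads. The members and lists were chosen with earlier results of these data known, and no list was tested as a set. Of 155 list entries, Myl12b matched 2 IDs and was left out. Genes named were the 10 members, Myh3, Myh7, Myh8, Pax7, Myod1 and Myog, up to 4 genes per list by mean FPKM and up to 4 by p among those with an unadjusted p under 0.05, and the 10 genes most like the members. Other genes were named after their values were seen. Python 3.11.15, scipy 1.17.1 and matplotlib 3.10.9 were used. The alternatives were 0.1 as the pseudocount, no filter, a mean of at least 2 FPKM, FPKM as deposited, quantile normalization, no trend, voom on the recovered reads, the replicate number as a block, leaving out each tumor in turn, and heavy chain shares by reads.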

Additional observations from a re-analysis of the deposited data

How the results depend on the processing

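In every alternative and with each tumor left out, 0 of the muscle genes had an unadjusted p under 0.05 and 0 had groups that did not overlap. Of 125 refitted fold changes of the 9 genes, 116 kept their direction, and the 9 that did not came from fits without 1 tumor. Over these fits the log2 fold change ranged from -0.12 to 1.67 for Ckm, -0.11 to 0.66 for Myh1, -0.0391 to 1.99 for Myh4, -0.40 to 1.92 for Mylpf, -0.000395 to 2.64 for Tnnt3, -0.14 to 2.17 for Tnni2, 0.0957 to 3.09 for Acta1, 0.20 to 2.09 for Myl1 and 0.11 to 1.43 for Atp2a1. In the same fits the number of muscle genes with a higher mean in anti-PD-1 tumors ran from 3 to 9, and their median log2 fold change from -0.04 to 1.99. The number was 10 of 10 with no filter and with voom. The median was 1.36 with 0.1 as the pseudocount and 1.66 with voom. With voom the log2 fold changes were Acta1 1.89, Ckm 0.04, Myh1 0.87, Myh4 2.47, Mylpf 0.40, Tnnt3 1.84, Tnni2 1.48, Myl1 2.05 and Atp2a1 1.06. The Myh4 share difference ran from 0.395 to 20.7 points with a tumor left out and was 11.2 points by reads. Of the genes of the 5 other muscle lists 2 had an unadjusted p under 0.05, against 12.3% of all tested genes. The sarcomere, calcium handling, energy, slow fiber and myogenic lists had 8, 7, 10, 3 and 0 genes tested. The count was 1 with a mean of at least 2 FPKM, and between 1 and 2 without 1 tumor. For the lists of other tissues, with 1 to 10 genes tested in each, the count was 3, and between 2 and 7 without 1 tumor. Deviations of same-numbered tumors from their group means had correlations of -0.16, 0.01 and 0.19. Those of differently numbered tumors ran from -0.26 to 0.24. With 3 tumors per group these correlations cannot settle whether the numbers pair the tumors. With the replicate number as a block the counts for the muscle lists and the other lists were 4 and 10, and no gene of the 10 was called. In that fit 1725 of 15069 tested genes had an unadjusted p under 0.05. Over all tested genes 1848 had an unadjusted p under 0.05, 954 when IgG replicate 2 was left out, 1159 when anti-PD-1 replicate 3 was, and 2678 when IgG replicate 1 was. The number with an adjusted limma p under 0.05 was 0, but 12 without IgG replicate 1, 1 without IgG replicate 3 and 1 with voom, and 0 in the other fits. The cause of these shifts was not tested. Below about 50 reads, isoform shares could not be read.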
